A study of Rattus norvegicus with 40 samples.

Results

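Kidney T cells were compared with circulating T cells in SS/MCW rats, a type of the Dahl salt-sensitive rat, on LS (low-salt) chow at 7 weeks of age, before any high-salt feeding. The labels for tissue, rat type, chow and age selected 4 kidney and 4 circulating libraries, or 8 of the 40 libraries of the series. The design text gives pools of 3 rats per library. The other groups were SS/MCW and SS/CRL rats at 10 weeks on LS or HS (high-salt) chow, of which SS/MCW on LS at 10 weeks is used here as the most alike. The labels call the cells isolated T cells and describe neither a gate nor a purity check. The deposited table held 1 expression value per group for each of 31677 gene models, in FPKM (fragments scaled to transcript length and to the number of mapped fragments), so the scatter of the 4 libraries cannot be shown and their depth is unknown. The labels do not say whether the pools of the kidney and the circulating cells came from the same rats.

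The Dahl salt-sensitive rat becomes hypertensive and develops kidney damage on high-salt chow, and T cells that enter the kidney take part in that process. As background, a T cell carries an antigen receptor bound to CD3 chains, signals through the kinases Lck and Zap70, and returns from tissue to blood and lymph by homing receptors such as CCR7 and S1PR1. Cells that stay in tissue typically lose those receptors and hold CD69 and the integrin CD103, while the kidney around them is mostly tubule, rich in mitochondria and solute transporters.

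A gene is said here to have risen or fallen in kidney only where the q-value in the authors' deposited table was under 0.05, and other values are given without such a verb. Of the 23120 gene models tested, 7598 rose, which is 32.9%, and 5519 fell, which is 23.9%. Each count of list members that rose or fell is to be read against these shares. Among 17193 tested gene models that reached 1 FPKM in either tissue, the median level in kidney was 114% of the circulating level. Circulating samples were listed at 0 for 2786 of the risen models, and kidney samples were listed at 0 for 741 of the fallen ones, so no fold is given for these. The FPKM summed to 649102 in kidney and to 1.05151e+06 in circulating samples, and making these sums equal moves every log2 difference up by 0.70. That shift turned the sign of 476 of the 5519 falls, among them Ldha, Pcna and Arntl of the 154 list members that fell, and so those 3 falls hold on the deposited scale only.

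**Figure D1:**
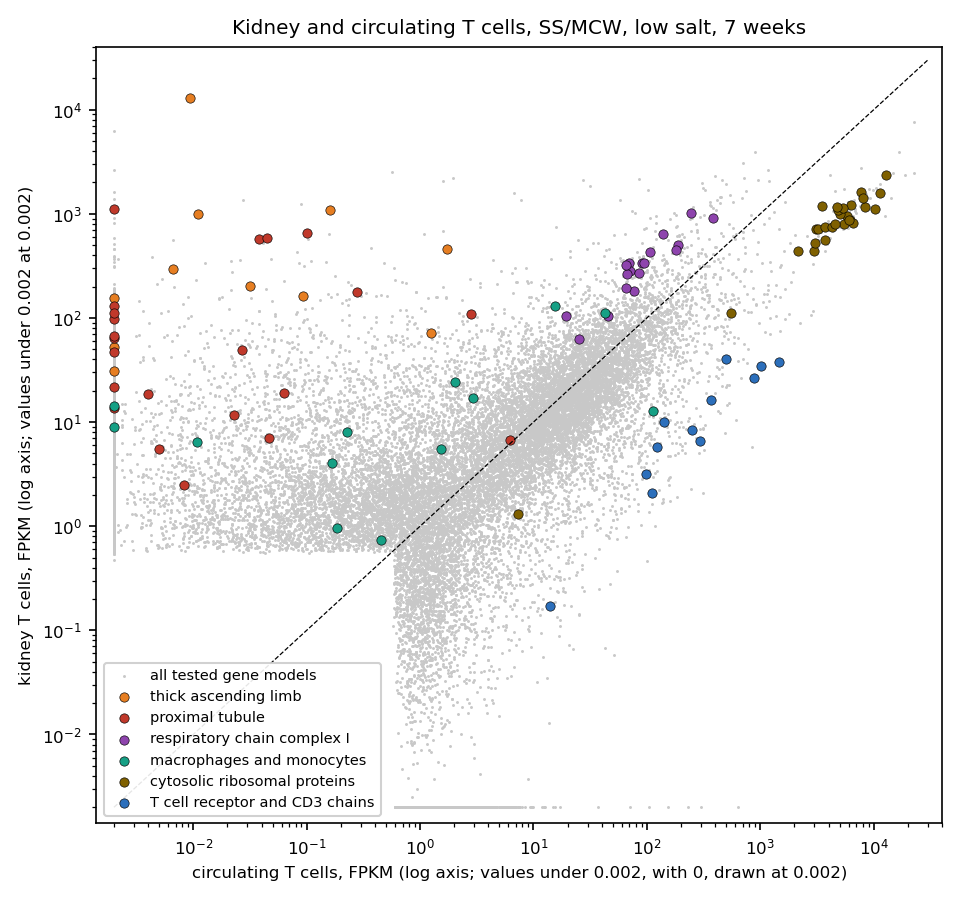
Kidney FPKM (vertical, log axis) plotted against circulating FPKM (horizontal, log axis) for the tested gene models, with members of 6 gene lists in colour and the line of equal levels dashed; values under 0.002, with 0, are drawn at the edge. T cell receptor chains lie below the line, complex I genes and nearly all tubule genes above it, and ribosomal proteins below it, all but 1 of them at the high end of both axes.

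The receptor and its CD3 chains were low in kidney. Cd3e, a signaling chain of the receptor complex (rn5 chromosome 8, 47915615 to 47926788), had 26.6 FPKM in kidney, against 874 in circulating samples. That is a log2 difference of -5.04 with a standard error of 0.41, or 3.04% of the circulating level. Cd3d had 34.4 FPKM in kidney, against 1012 in circulating samples, and Cd3g 37.7 against 1456. The coreceptor genes gave 5.77 against 124 for Cd4 (log2 -4.42, standard error 0.44) and 40.04 against 498 for Cd8a (log2 -3.64, standard error 0.47). Ptprc, which encodes the leukocyte phosphatase CD45, had 10.5 FPKM in kidney, against 606 in circulating samples, for a log2 difference of -5.85 with a standard error of 0.49. All 12 matched members of the receptor and CD3 list fell, with a median log2 difference of -4.93. In bulk RNA, fewer T cells and less of such RNA per cell cannot be told apart.

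Signaling genes just inside the receptor moved with it. Of 15 matched members of the proximal signaling list 14 fell, with a median of -4.12, including Lck (22.7 against 535), the adaptor gene Lat (40.2 against 697) and the kinase gene Zap70 (11.9 against 153 FPKM). Sla2 did not pass, at 0.561 FPKM in kidney and 4.45 in circulating samples. The 12 naive T cell factors all fell as well, at a median of -5.16. Tcf7, a transcription factor of naive and memory T cells, had 7.94 FPKM in kidney against 487 in circulating samples, and Satb1, a chromatin organiser needed in thymocytes, 5.41 against 319.

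Homing genes fell together. Ccr7, the receptor for lymph node chemokines, had 2.07 FPKM in kidney, against 312 in circulating samples. Its circulating level was 151-fold the kidney level. S1pr1, the receptor that drives exit into lymph and blood, stood at 12.1 against 445 FPKM. All 12 homing genes fell, at a median of -4.61. By the same ranking Sv2b (log2 -7.29), Mcart1l (-7.25), Tnfsf8 (-6.96), Cd40lg (-6.88), Art2b (-6.62), Tspan32 (-6.36), Cd5 (-6.35) and RGD1560849 (-6.12) were also among the 10 largest falls among genes that reached 5 FPKM in either tissue. Cd40lg, the T cell ligand that activates B cells, had 1.01 FPKM in kidney and 119 in circulating samples.

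Resident and effector T cell genes gave falls and no rise. Of 16 matched tissue-resident and effector memory genes 10 fell and none rose, at a median of -2.49. Itgae, which encodes the CD103 integrin of tissue T cells, was 10.1 FPKM in kidney and 13.9 in circulating samples and did not pass. Rgs2, a regulator of G protein signaling, had 23.7 and 23.4 FPKM. Rgs1 fell to 19.0 in kidney, against 68.6 in circulating samples, and Cd69 fell to 11.0, against 130. The 14 cytotoxic genes gave 10 falls and no rise, at a median of -1.28. Ccl5, a chemokine made by effector T cells, had 62.8 and 72.9 FPKM, and Tbx21, the Th1 factor, had 5.41 and 5.46, and neither passed. Perforin, encoded by Prf1, fell to 1.02, against 34.9 FPKM. Relative to circulating levels the receptor list lay between 1.23% and 8.04%. Members that reached 1 FPKM in either tissue ran from 6.58% to 101% in the resident list and from 2.92% to 220% in the cytotoxic list. Ccl5 stood at 86.2% and Itgae at 73.1%, so the lower ends of these 2 lists lay within the receptor range.

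**Figure D2:**
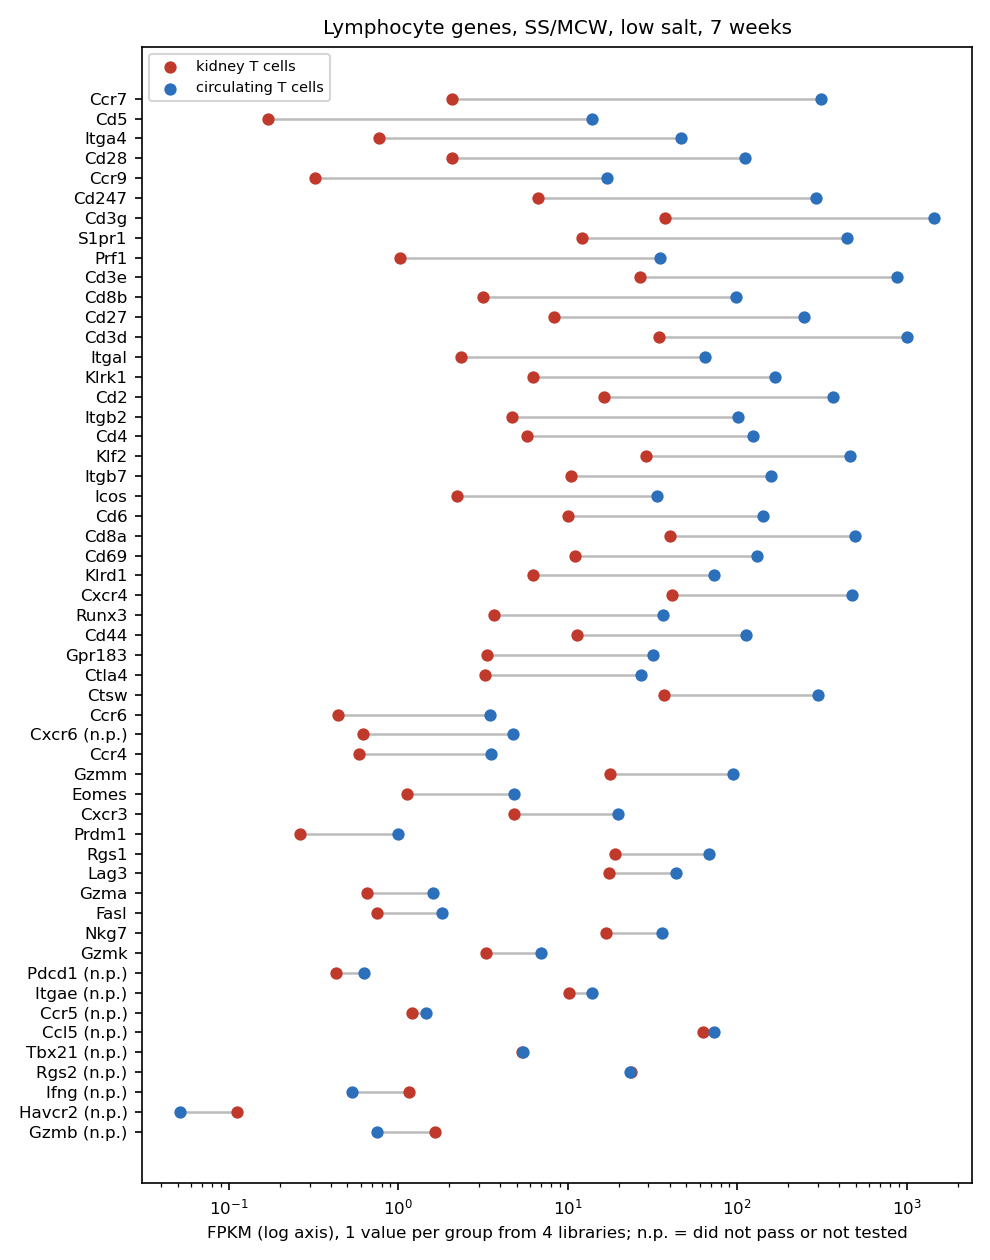
FPKM on a log axis in kidney (red) and circulating (blue) T cells for genes of the receptor, homing, resident and cytotoxic lists, from the largest fall at the top; points joined by a line are 1 value per group. Ccr7, with 2.07 FPKM in kidney against 312, is the widest pair, and Ccl5, Tbx21 and Rgs2 are nearly closed.

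Helper and regulatory T cell factors were mixed. Of 12 matched members 4 rose, a share close to the 32.9% of all tested models, and 6 fell, against 23.9% of all. By a normal p of the deposited statistic 2 rose and 5 fell. Maf, a transcription factor of several helper T cell types, rose to 14.2 FPKM, against 4.70, and Il12rb1 to 3.67 against 1.51. Foxp3, the regulatory T cell factor, fell to 3.53 against 14.4. In the natural killer list Fcer1g (58.7 against 23.6) and Tyrobp (log2 1.82), adaptors shared with myeloid cells, rose while 4 others fell. The B cell list had 6 falls and 1 rise, that of Blnk, at 38.4 FPKM in kidney and 1.67 in circulating samples.

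Most macrophage genes, and many antigen-presentation genes, were high in kidney, while neutrophil genes were not. Of 14 matched macrophage genes 10 rose and 1 fell, at a median of 3.06. Apoe, a lipid carrier of macrophages and other cells, had 130 FPKM in kidney, against 15.6 in circulating samples, and Lyz2, a lysozyme gene, 112 against 42.4. Csf1r, the receptor for macrophage growth factor, had 17.0 against 2.93. C1qa and C1qc, subunits of complement C1q, had 8.93 and 14.2 FPKM in kidney and were listed at 0 in circulating samples. Ctss was the exception, at 12.8 FPKM in kidney and 114 in circulating samples. Of 9 matched neutrophil genes 1 rose and 2 fell, S100a8 (3.16 against 13.2) and S100a9 (3.25 against 17.6 FPKM). The list of dendritic cells and MHC class II had 7 rises and 1 fall of 14 matched. Cd74, the invariant chain of MHC class II, had 370 FPKM in kidney, against 141 in circulating samples, and RT1-Da 117 against 43.4. RT1-Ba, at 18.5 and 14.2 FPKM, did not pass, and Cd80 fell to 0.170, against 2.46. Hba1 and Hba2, hemoglobin chains of red cells, had 340 and 205 FPKM in kidney, against 99.1 and 53.1 in circulating samples. Platelet genes went the other way, with 6 falls and no rise among 10 matched, led by Pf4 at 6.81 against 108 FPKM. The part of these other cells in the T cell gene levels was not tested.

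The kidney samples held some nephron genes at FPKM above all of the T cell lists, where Ccl5 at 62.8 was the highest in kidney. By list, the median kidney FPKM was 204 for the thick ascending limb and 56.3 for the proximal tubule. It was 17.9 for the collecting duct and 6.07 for the distal convoluted tubule, against 9.14 for the receptor and CD3 list. Umod, encoding uromodulin of the thick ascending limb, had the highest FPKM in kidney of all gene models with a symbol, at 12856 against 0.00934 in circulating samples. The authors' deposited table gives it a q of 0.297, which did not pass. Slc12a1, the sodium-potassium-chloride cotransporter of the same segment, had 1006 against 0.0110 FPKM, and the q in the authors' deposited table was 0.102. Of 1406 models with at least 5 FPKM in kidney and under 0.1 in circulating samples, 486 did not pass, or 34.6%, against 43.3% of all tested models. The reverse pattern, 5 FPKM in circulating and under 0.1 in kidney samples, was held by 83 models.

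By segment, 16 of 22 matched proximal tubule genes rose and none fell, 8 of 11 of the thick ascending limb, and 9 of 13 of the collecting duct. Slc34a1, the sodium-phosphate cotransporter of the proximal tubule, had 573 FPKM in kidney, against 0.0379 in circulating samples. Aqp1, a water channel, had 583 against 0.0445, and Miox, a kidney oxygenase, 661 against 0.1002. In the collecting duct Aqp2, the vasopressin-regulated water channel, had 61.5 FPKM and was listed at 0 in circulating samples. The distal convoluted tubule list had 3 rises and 1 fall of 7: Slc12a3, the thiazide-sensitive cotransporter, had 109 against 4.59 FPKM, and Trpm6, a magnesium channel, 6.07 against 28.6. Podocyte genes summed to 63.9 FPKM in kidney and 43.0 in circulating samples. Most of each sum was Cd2ap, at 38.1 and 41.4 FPKM, which did not pass. Podxl, of podocytes, had 12.9 against 0.0190 FPKM, while the podocyte gene Nphs1 had 0.103 FPKM in kidney. The podocyte list gave 4 rises of 10. Of 16 endothelial genes 9 rose and 2 fell, Vwf (2.75 against 17.7) and Ehd3 (19.4 against 66.9 FPKM).

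The circulating samples held the T cell genes at high FPKM, while the kidney samples held T cell genes together with some nephron genes at higher FPKM. Circulating samples also held genes of platelets (Pf4, 108 FPKM), red cells (Hba1, 99.1), myeloid cells (Lyz2, 42.4) and B cells (Cd79b, 20.4), so their purity is not shown. The summed FPKM of the 12 receptor and CD3 genes was 191 in kidney and 5242 in circulating samples, and that of the 11 thick ascending limb genes was 16374 and 3.30. In circulating samples all 13 collecting duct genes summed to 0.466 FPKM, while some tubule genes were above 1 FPKM, such as Slc4a4 at 6.20, Slc12a3 at 4.59 and Trpm6 at 28.6. How much the tubule RNA moved each difference was not tested.

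**Figure D3:**
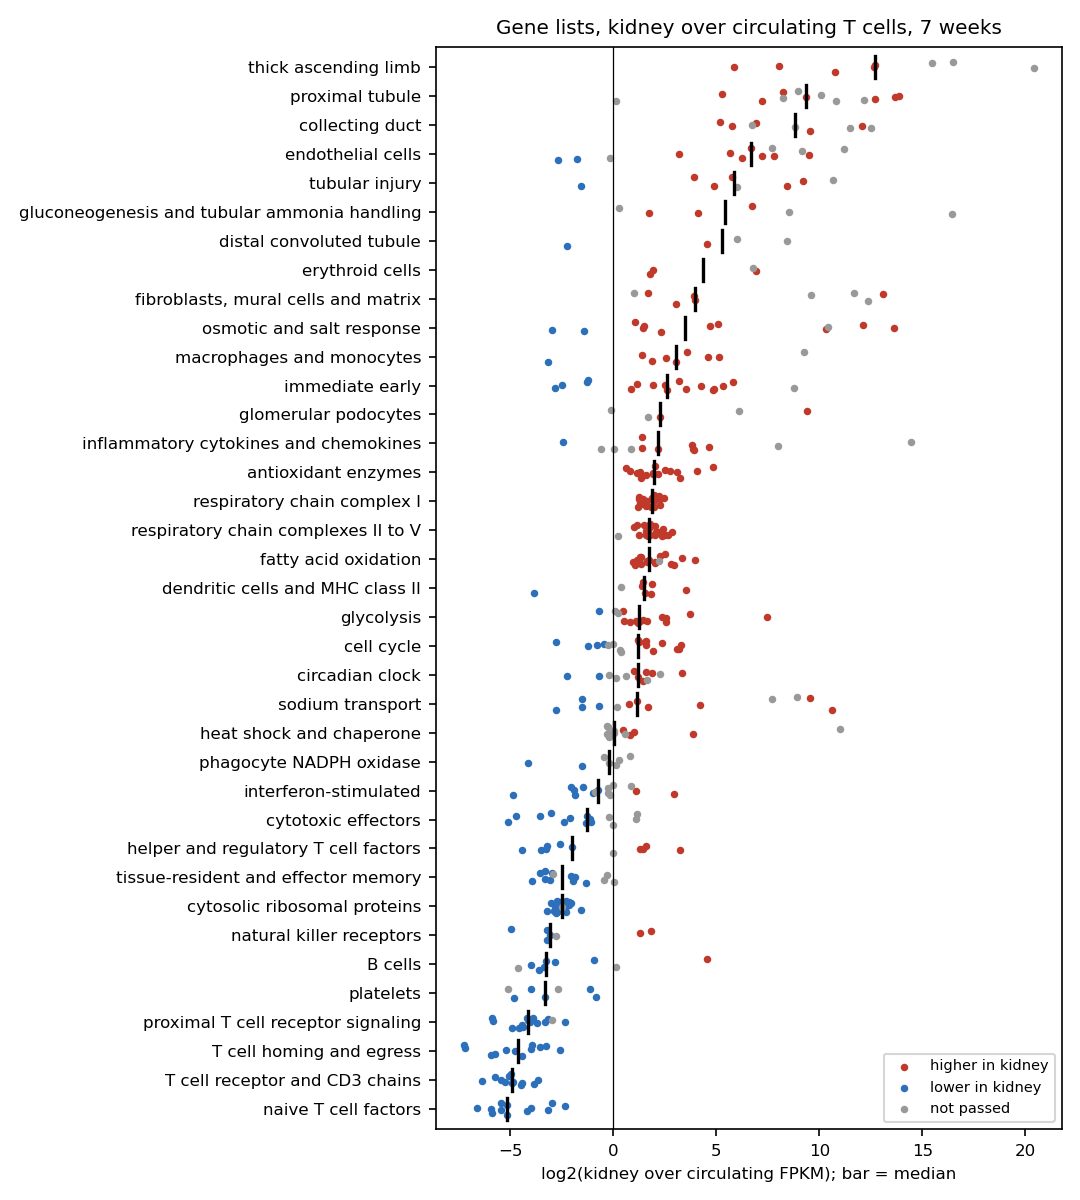
Log2 difference in kidney over circulating FPKM for each list member that reached 1 FPKM in either tissue and was above 0 in both, by list; red points rose, blue points fell, grey points did not pass, and the bar is the median. T cell receptor, homing and naive lists have medians of -4.93, -4.61 and -5.16, and the thick ascending limb list reaches 12.69.

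Most genes of the tubular injury list rose. Whether their levels reflect injury or the presence of tubule RNA was not tested. Spp1, encoding osteopontin, had 2655 FPKM in kidney and was listed at 0 in circulating samples. Cd24 had 638 against 1.09 FPKM, Clu, a secreted chaperone, 285 against 5.19, and Lcn2, a marker of tubular injury, 57.1 against 0.165. Havcr1, of the same list, rose to 2.26 against 0.0764 FPKM. The list had 8 rises and 1 fall of 11, and the fall was Vim, an intermediate filament that T cells also make, at 168 against 491 FPKM. Krt8 (85.2 against 0.0534 FPKM) and Vcam1 (1.26 against 0.0200) did not pass. The renin-angiotensin list had 7 rises and no falls of 8, with Mme at 42.8 FPKM and Enpep at 27.2 in kidney, both listed at 0 in circulating samples. The sodium pump beta subunit gene Atp1b1 (2069 against 1.59 FPKM) rose, as did Fxyd2, a regulatory subunit of the pump, and Cryab, a small heat shock protein (522 against 0.0409). Tsc22d3, a glucocorticoid-induced gene, fell to 57.5, against 457 FPKM.

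Mitochondrial genes rose as a class. Every one of the 18 matched complex I genes rose, with a median log2 difference of 1.87 and levels from 227% to 548% of the circulating ones. Of 22 genes of complexes II to V 21 rose, Atp5b, the catalytic subunit of ATP synthase, at 2285 against 399.8 FPKM. Uqcrh had 969 and 822 FPKM and did not pass. Of 19 fatty acid oxidation genes 18 rose and none fell, and all 17 antioxidant enzyme genes rose, among them Sod1 (901 against 361) and Gpx1 (742 against 180 FPKM). In glycolysis 13 of 17 rose and Ldha fell, at 200.4 against 324 FPKM. Ldhb, the heart and kidney subunit of the same enzyme, had 1369 in kidney, against 7.75 in circulating samples.

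Ribosomal protein genes fell as a class. Of 28 matched members 27 fell, with a median log2 difference of -2.49 and levels from 10.8% to 34.0% of those in circulating samples. The 105 gene models named as ribosomal proteins took 13.2% of kidney FPKM and 45.0% of circulating FPKM. Many of these genes have near-identical copies, so their counts per copy are uncertain. With the sums of FPKM made equal the median of the list was -1.80.

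Immediate early genes, which cells switch on soon after a stimulus, rose in the main. Of 21 matched genes 12 rose and 4 fell, at a median of 2.60. Fos, a subunit of the AP-1 factor, had 125 FPKM in kidney, against 4.32 in circulating samples (log2 4.85, standard error 0.49). Egr1, a zinc finger factor, had 38.5 against 1.31, Jun 185 against 30.4 and Dusp1, a phosphatase of MAP kinases, 101 against 26.7 FPKM. Btg2 (46.9 against 333), Jund (141 against 345), Klf6 (21.2 against 50.4) and Myc (14.8 against 83.6 FPKM) fell. Atf3, with 27.1 against 0.0621 FPKM, did not pass.

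Promoters of this class were searched for motifs because most of it rose together. Those of the 3 risen members that carried a motif are shown, and the other risen members matched carried none. Of the 21 genes 14 matched a RefSeq promoter (GRCr8), of which 9 had risen. Fos and Jun were not among the 14. The cyclic AMP element TGACGTCA, the AP-1 site TGACTCA and the serum response CArG box were searched on both strands over 300 bases. No motif searched contains another. TGACGTCA was in 2 of the 9 (Dusp1 and Ier2) and 2 of the other 5 (Btg2 and Jund), against 1.83% of 33469 promoters. TGACTCA was in none of the 14, against 4.63%, and the CArG box in 1 of the 9 (Egr1) and 2 of the other 5, against 1.64%. The sequences run up to the base before the start, 5′ to 3′ on the gene's strand, with motifs in capitals.
Egr1 (GRCr8 chr18:26736958-26737077, plus strand, 2 CArG boxes): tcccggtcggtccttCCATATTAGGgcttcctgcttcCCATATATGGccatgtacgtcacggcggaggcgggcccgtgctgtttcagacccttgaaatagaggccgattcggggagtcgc
Ier2 (GRCr8 chr19:40399253-40399372, plus strand, cyclic AMP element): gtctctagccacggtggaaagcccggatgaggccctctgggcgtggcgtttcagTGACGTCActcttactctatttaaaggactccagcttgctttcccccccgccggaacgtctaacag
Dusp1 (GRCr8 chr10:17184603-17184852, plus strand, cyclic AMP element): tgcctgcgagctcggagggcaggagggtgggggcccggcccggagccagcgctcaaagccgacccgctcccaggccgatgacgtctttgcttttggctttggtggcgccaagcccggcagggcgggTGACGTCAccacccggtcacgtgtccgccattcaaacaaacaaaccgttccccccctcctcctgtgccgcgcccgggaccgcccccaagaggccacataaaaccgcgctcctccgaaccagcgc
Egr1 carries its CArG boxes from -105 to -96 and from -83 to -74, Ier2 its element from -66 to -59 and Dusp1 its own from -124 to -117. A match is a description of letters and not a site of binding.

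**Figure D4:**
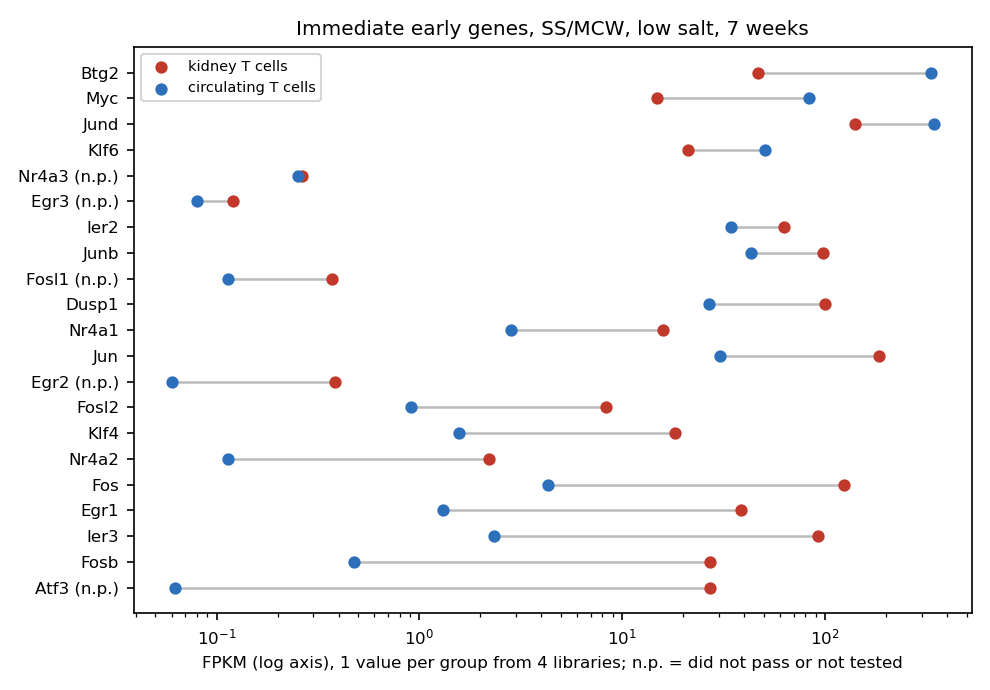
FPKM on a log axis in kidney (red) and circulating (blue) T cells for the 21 matched immediate early genes, from the largest fall at the top to the largest rise at the bottom; a pair marked n.p. did not pass or was not tested. Btg2, at 46.9 FPKM in kidney against 333, opens the plot, and Fos lies at 125 against 4.32.

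The lists on signaling and inflammation were mixed. Of 17 matched cytokine genes 8 rose and 1 fell: Ccl3, a macrophage and T cell chemokine, had 55.4 against 21.2 FPKM, Il1b 6.86 against 1.54, Cxcl10 11.6 against 0.821, and Tgfb1 fell to 18.6 against 101. Cxcl12 had 233 against 0.0105 FPKM and did not pass. Of 8 phagocyte NADPH oxidase genes Nox4, the renal isoform, rose at 8.86 FPKM with circulating samples listed at 0, Rac2 was among the 2 that fell, at 69.4 against 1222, and Cyba had 109 and 147 FPKM. That list's median of -0.19 became 0.51 with the sums of FPKM made equal, so its direction depends on the scale. Of 16 interferon-stimulated genes 2 rose and 7 fell, Mx1 at 4.29 against 123 and Ifi27 at 129 against 535 FPKM, while Isg15 had 22.6 and 23.1. In the cell cycle list 10 rose, Cdk1 at 11.1 against 1.14 FPKM, and 4 fell, Mcm3 at 5.26 against 36.3.

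The 10 largest rises by log2 had circulating values under 0.2 FPKM and so large folds. They included Ppp1r1a, a phosphatase inhibitor (1362 against 0.0277 FPKM), Cldn2, a tight junction channel (68.5 against 0.00335), Slc34a1, Aqp1, Cryab, Sult1c2a, Timp3, Cdkl1 and Miox. The standard errors were as wide as 59.8 on the log2 scale for Cldn2. Among genes that reached 1 FPKM in each tissue, a limit added after the data were seen, the largest rises were Atp1b1, Mt2A (2195 against 1.94 FPKM), Cd24, Wfdc2 (686 against 1.59), Cldn10, Cd63 (1588 against 6.77), Ldhb, Camk2n1, Gadd45g and Dhrs3. At the other end, 5 genes with at least 50 FPKM in both lay nearest to equality, Vcp at 110.4 and 110.0 FPKM, with Flot1, ANAPC11, Fibp and Psmd3.

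The same contrast at 10 weeks in SS/MCW rats on LS shares no libraries with the 7-week one. Of 11750 gene models called at 7 weeks and tested at both ages, 66.9% were also called at 10 weeks in the same direction, and of 8873 called at 10 weeks, 88.6%. The log2 differences correlated across 10261 gene models at r of 0.98 (Pearson), a description over genes that share libraries. A direct test of the 7-week minus 10-week difference passed for 2 of 16330 gene models, or 0.0122%, and 63, or 0.386%, had an unadjusted p under 0.05. That share is far below the 0.05 expected if no model differed, so the test was too strict for most models. Its few passes cannot show that the ages were alike. Other differences between the ages did not pass that test and are given as sizes. Cd3e had 26.6 FPKM in kidney at 7 weeks and 36.7 at 10 weeks, against 874 and 772 in circulating samples. The authors also compared the ages within kidney cells, in a table scaled on its own. There Cd3d had 38.4 FPKM at 7 weeks and 114 at 10 weeks, and the q in the authors' deposited table was 0.0304, while Cd3e, at 29.7 and 42.1 FPKM, had 0.832. Cd4 (q of 0.946), Cd8a (0.415) and Ptprc (0.984) did not pass there either. In the tissue comparisons, each scaled on its own, Spp1 in kidney had 2655 at 7 weeks and 7758 at 10 weeks, and Umod 12856 and 3565. In the authors' comparison of ages within kidney cells their q was 0.794 and 0.538, so neither passed. Hba1 in kidney had 340 at 7 weeks and 2255 at 10 weeks. The kidney FPKM sum of all models was lower at 7 weeks, 649102 against 755795 at 10 weeks.

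Over all 16330 models tested, the median 7-week minus 10-week difference was -0.0545 on the deposited scale. Equal sums of FPKM move log2 differences up by 0.70 at 7 weeks and by 0.18 at 10 weeks. The share of all models lower at 7 weeks was not computed, so the counts below have no such share beside them. Among lists, the ribosomal difference was lower at 7 weeks than at 10 weeks in 28 of 28 genes, with a median of -0.94. After the sums of FPKM were made equal it was lower in 25 of 28, with a median of -0.42. The receptor and CD3 list was lower at 7 weeks in 11 of 12 genes, with a median of -0.94, but in 8 of 12 with equal sums. Platelet genes were lower at 7 weeks in 6 of 6, with a median of -3.33, and in 6 of 6 with equal sums. This is a ratio, and circulating levels differed too. Pf4 had 6.81 FPKM in kidney at 7 weeks and 36.1 at 10 weeks, against 108 and 28.9 in circulating samples. Some kidney values were low, such as Clec1b at 0.274 FPKM at 7 weeks. Thick ascending limb genes had a median difference of 1.09, or 1.61 with equal sums. For complex I the median was -0.27, with 15 of 18 genes lower at 7 weeks. With equal sums it turned to 0.25, with 3 of 18 lower, so its direction depends on the scale. Equal sums shift every model by the same amount, so this turn is not particular to complex I.

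**Figure D5:**
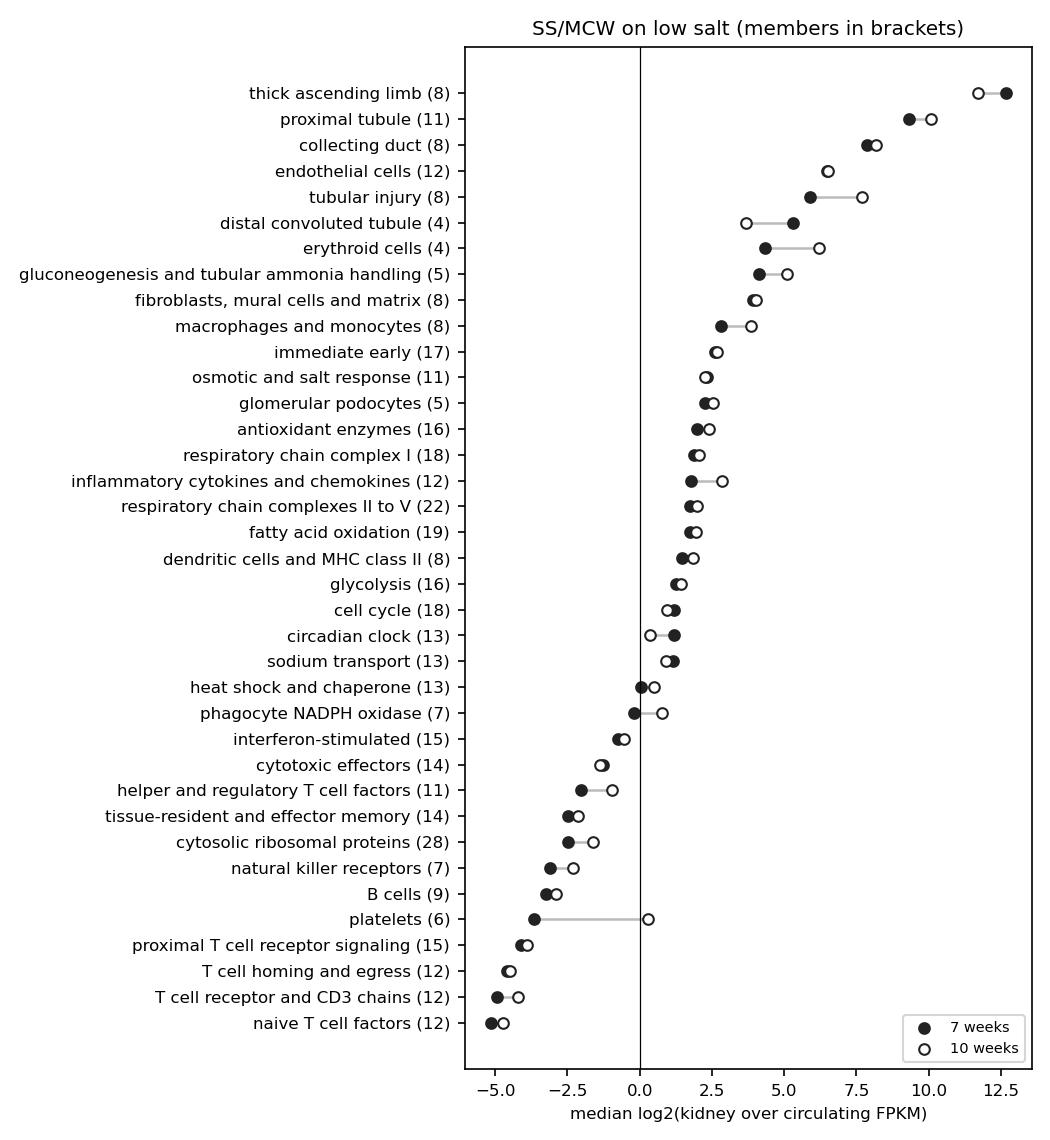
Median log2 difference in kidney over circulating FPKM at 7 weeks (filled) and at 10 weeks (open) in SS/MCW rats on LS, by list, over members above 0 in both tissues at both ages (number in brackets). The platelet list is the widest pair, with a median of -3.64 at 7 weeks and 0.30 at 10 weeks.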

How the data were processed

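RNA of SS/MCW rats on LS chow was sequenced in 4 kidney and 4 circulating T cell libraries at 7 weeks. Per the submitters' processing notes, the tools were Cuffdiff, Cufflinks 2.2.1, TopHat, TopHat2 2.1.1, Trim Galore 0.2.5 and cutadapt, and the build was rn5. The authors deposited FPKM, 1 value per group per gene model, with the Cuffdiff test statistic, a score, and the q-value and p-value, per the file headers. Depth per library and its precision are unknown, and values per library are not used here. The series has 15 deposited tables, and 7 of them were used.

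Log2(kidney over circulating) was computed from the deposited FPKM. The fold changes as deposited were left aside, since some had been turned into spreadsheet errors. A call needed status OK and a deposited q under 0.05. Standard errors are the log2 difference divided by the deposited statistic. The statistic and the p did not always go together: 2992 of 9590 calls with a listed statistic had an absolute value under 1.96. The 7 and 10 week differences were compared by a z of the 2 log2 differences, a two-sided normal p and Benjamini-Hochberg adjustment over all models, and the script was tested on simulated data. The 39 gene lists matched 540 of 579 genes. The members and lists were chosen with earlier results of these data known. Genes named were the 10 largest rises and falls (called, with a symbol, reaching 5 FPKM in either tissue and above 0 in each), the 5 highest in each tissue, up to 4 called and 2 not passed members of each list, Cd3e, Cd4, Cd8a and Ptprc, and the 5 nearest to 0. Nphs1 and some other list members were added outside it once their values had been seen, and some genes that meet it are not reported here. Alternatives were a 2-fold limit, a q under 0.01, p adjusted again over models reaching 1 FPKM, a normal p of the statistic, recentring on the median, a pseudocount of 1 and, added after the data were seen, equal sums of FPKM. Promoters are from RefSeq (GRCr8). Scripts ran in Python 3.11.15 with matplotlib 3.10.9, scipy 1.17.1, numpy 2.4.6 and pandas 2.3.3.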

Additional observations from a re-analysis of the deposited data

Results flagged for a closer look

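The direct test of the 7-week minus the 10-week kidney over circulating difference picked out 2 gene models, neither with a symbol. The first, MSTRG.59259 on the mitochondrial chromosome, had 2630 FPKM in kidney against 1175 in circulating samples at 7 weeks, and 14186 against 287 at 10 weeks, a difference of -4.47 on the log2 scale. The second, ENSRNOG00000041370, had 59.0 against 163 FPKM at 7 weeks and 94.2 against 136 at 10 weeks, a difference of -0.943. The z of the first was -394, from a very small standard error. When the deposited p rather than the statistic set the standard error, neither passed, and 2 other unnamed models did.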

How the results depend on the processing

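No paired analysis was possible because the tables hold 1 value per group and no values per library, and for the same reason no replicate could be left out. A model listed at 0 in either tissue has no usable statistic, so a normal p of the statistic could be had for 18962 of the 23120 tested models, which hold 4812 of the 7598 rises and 4778 of the 5519 falls. By it 3036 were higher in kidney and 2561 lower, and with recentring on the median as well, 3492 and 2093. Of 78 counts over the lists, 2 moved by over 1.5 times with a q under 0.01, 22 under the normal p and 18 with recentring, where members at 0 drop out. Among members with a statistic, the proximal tubule had 8 rises of 13 by the normal p and 7 by the deposited q, the collecting duct 5 of 9 by either, the cytotoxic list 6 falls of 14 against 10, the receptor and CD3 list 11 falls of 12 against 12, and complex I 18 rises of 18 by either. The median log2 difference of models with at least 5 FPKM in both was -0.22. It was -0.17 with a minimum of 1 FPKM, -0.21 with a pseudocount of 1, and 0.47 with the sums of FPKM made equal. The NADPH oxidase list turned to 0.51 with equal sums. The depth of the libraries is unknown, so low circulating values near 0 cannot be weighed by counting error.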

Other observations

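Clock genes were mixed. Of 13 matched clock genes 6 rose and 2 fell: Nr1d1, a repressor of the clock, had 46.3 FPKM in kidney, against 4.61 in circulating samples, and Dbp, an output factor, 69.2 against 30.6. Cry1 fell to 3.63, against 17.0. Of 13 sodium transport genes 6 rose and 4 fell. Slc9a3, the proximal tubule sodium-proton exchanger, had 35.4 against 0.0226 FPKM. The chaperone Hsp90ab1 had 699.9 and 868 FPKM in kidney and circulating samples and did not pass, and Hspd1 of the mitochondrial matrix rose to 149, against 73.5.

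Nkx2-1, a factor of lung and thyroid, chosen after its values were seen, had 44.1 FPKM in kidney, against 0.486 in circulating samples. A model without a symbol on rn5 chromosome 15 (3621043 to 3621253) had 6226 FPKM in kidney and was listed at 0 in circulating samples.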
